A study of Mus musculus with 6 samples.

Results

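The 10 genes described here make up the class I antigen presentation machinery of the mouse: the heavy chains H2-K1, H2-D1, H2-Q4, H2-Q6 and H2-T23, the light chain B2m, the peptide transporter subunits Tap1 and Tap2, the loading chaperone Tapbp and the transactivator Nlrc5. They were chosen by name, and all 10 were found among the 23057 gene symbols of the deposited table. RNA came from whole brains, as labelled, of C57BL/6 mice, taken 30 days after a single 10 Gy cranial X-ray dose (3 mice) or after a mock exposure (3 mice). Irradiation went through a collimator with a field 10.08 mm in diameter, all mice were perfused with saline before dissection, and the labels state neither age nor sex. Libraries go by group and replicate number, as mock 1 or irradiated 3. FPKM counts fragments per kilobase of a gene's transcript and scales them to the mapped fragments of that library, so levels of different genes can be set side by side.

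Class I molecules show short peptides from the cell's own proteins to CD8 T cells and to natural killer cells. A polymorphic heavy chain pairs with beta-2 microglobulin in the endoplasmic reticulum, the Tap1 and Tap2 dimer pumps proteasome products in from the cytosol, and tapasin (Tapbp) holds the empty heavy chain beside the transporter until a peptide binds. Interferons raise the genes of this pathway together, and Nlrc5 acts on a conserved promoter module that these genes share. In the brain, class I RNA is found in microglia and endothelium and, at lower levels, in neurons, where class I molecules have been linked to synapse remodelling.

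Of the 10 members, 8 lie on chromosome 17 in the H2 complex, B2m lies on chromosome 2 (122147687 to 122153082) and Nlrc5 on chromosome 8 (94434335 to 94527272). These are RefSeq coordinates of GRCm38.p6, the assembly that mm10 stands for. RefSeq promoter entries were matched for 8 members. The 250 bases before the start site of the RefSeq promoter entry are printed for 5 of them: the 2 classical heavy chains, whose values differ below, a nonclassical heavy chain, the light chain and the transporter subunit that rose. Each is written 5′ to 3′ on the gene's own strand, with motif matches in capitals. H2-K1 has 2 entries, with start sites at 34000347 and 34000333, and the first is used; both lie inside the RefSeq gene, which begins 272 bases upstream of the first, while for the other 7 members the entry starts where the gene does.
H2-K1, chr17:34000348-34000597, minus strand: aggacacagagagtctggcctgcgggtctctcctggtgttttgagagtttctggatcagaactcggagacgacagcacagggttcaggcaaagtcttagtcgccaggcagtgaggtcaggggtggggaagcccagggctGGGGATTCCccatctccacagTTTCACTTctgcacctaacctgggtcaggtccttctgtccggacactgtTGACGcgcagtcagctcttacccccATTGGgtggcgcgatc
H2-D1, chr17:35262844-35263093, plus strand: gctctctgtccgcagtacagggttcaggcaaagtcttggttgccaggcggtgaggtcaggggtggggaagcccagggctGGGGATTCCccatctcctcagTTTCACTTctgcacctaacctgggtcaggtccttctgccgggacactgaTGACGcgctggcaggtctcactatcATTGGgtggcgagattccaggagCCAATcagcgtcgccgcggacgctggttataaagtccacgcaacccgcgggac
H2-T23, chr17:36032702-36032951, minus strand: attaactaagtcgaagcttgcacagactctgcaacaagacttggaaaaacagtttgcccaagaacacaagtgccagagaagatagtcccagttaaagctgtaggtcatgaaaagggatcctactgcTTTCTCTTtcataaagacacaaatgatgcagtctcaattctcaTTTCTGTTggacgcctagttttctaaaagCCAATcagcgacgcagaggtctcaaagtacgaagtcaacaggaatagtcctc
B2m, chr2:122147437-122147686, plus strand: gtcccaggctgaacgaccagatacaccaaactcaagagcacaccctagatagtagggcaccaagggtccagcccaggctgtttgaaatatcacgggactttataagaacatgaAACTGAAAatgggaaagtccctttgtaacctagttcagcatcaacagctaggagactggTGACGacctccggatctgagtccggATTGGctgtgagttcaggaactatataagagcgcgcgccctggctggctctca
Tap1, chr17:34187306-34187555, plus strand: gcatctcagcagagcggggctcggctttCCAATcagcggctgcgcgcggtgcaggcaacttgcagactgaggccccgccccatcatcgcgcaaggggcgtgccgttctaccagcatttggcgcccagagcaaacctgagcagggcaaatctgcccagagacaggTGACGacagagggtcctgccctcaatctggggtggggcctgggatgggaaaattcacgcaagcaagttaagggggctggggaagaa

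The capitals mark matches, on either strand, to 4 motifs known from class I promoters: GGGNNTTCC (kappa-B type, bound by NF-kappa-B), AANNGAAA (the core of interferon response elements), TGACG (the X2 box) and CCAAT (the Y box). None of these 4 letter strings contains another. Among all 32851 RefSeq promoter windows of this length, 4.98% hold the kappa-B motif, 21.3% the interferon core, 17.8% the X2 box and 33.8% the Y box. Of the 8 member windows, 4 hold the kappa-B motif, 6 the interferon core, 5 the X2 box and 8 the Y box. H2-K1 and H2-D1 share the same layout, with 70 bases from the start of the kappa-B match to that of the X2 box and 25 from there to the Y box. In B2m the X2 match starts 78 and the Y match 53 bases before the start site. Other members differed in order. In H2-Q4 the X2 match, at 73 bases, lies between Y matches at 79 and 55. In Tap1 the only Y match, at 222 bases, lies upstream of the X2 match at 86. Kappa-B, X2 and Y matches stand together in 0.408% of all windows. H2-D1 has a further Y box match, 53 bases before its start site. The H2-K1 window is shifted by 60 bases and ends before the matching place, so no match could be seen there. The H2-K1 and H2-D1 windows are identical at 170 aligned bases of 250, or 68.0%. That shift leaves part of each window without a counterpart, so this share is not that of the comparable bases. The H2-T23 window holds 2 interferon cores and a Y box, and no match to the kappa-B or X2 motif. Tap1 is transcribed away from Psmb9, an inducible proteasome subunit, and the RefSeq starts of these neighbours are 226 bases apart. A match is a description of letters and not of binding.

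**Figure D1:**
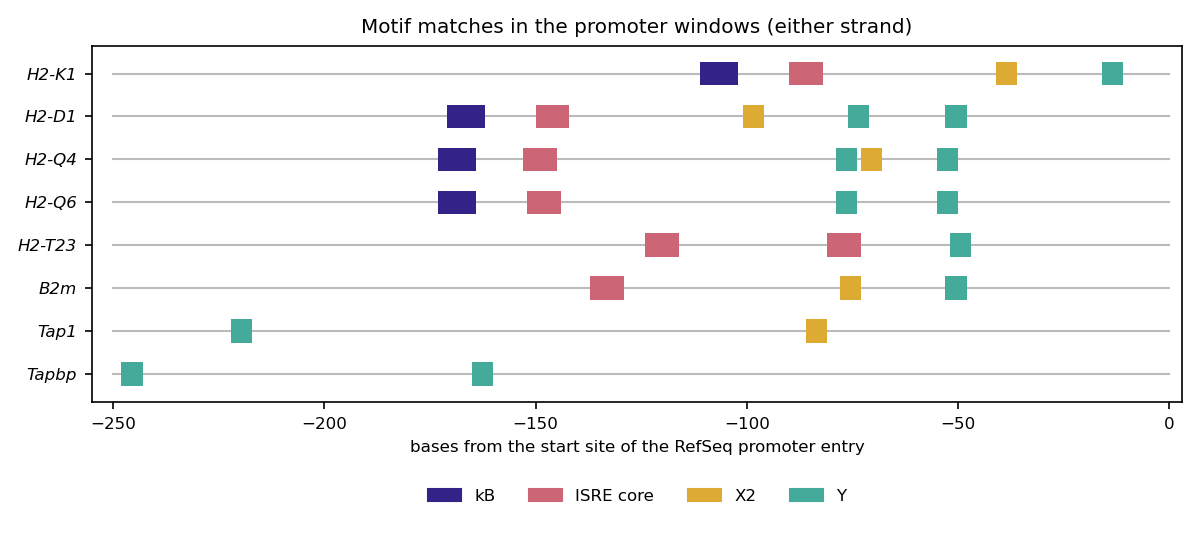
Positions of the 4 motifs in the 250 bases before the start site of the RefSeq promoter entry of 8 members; the x axis is the distance from the start in bases and each coloured block is a match on either strand. H2-K1 and H2-D1 hold the same order of kappa-B, interferon core, X2 and Y matches. The matches are shifted along the window by 60 bases (46 bases with the second H2-K1 entry). H2-D1 has 1 more Y match, at a place past the end of the H2-K1 window.

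The groups also differed in markers of brain regions. On 8 cerebellum markers the summed level was 883 to 1219 FPKM for mock brains against 23.5 to 59.7 FPKM for irradiated brains, and all 8 were called lower. On 8 telencephalon markers it was 26.3 to 63.1 FPKM for mock brains against 109 to 214 FPKM for irradiated brains. The brain parts sampled and irradiation therefore cannot be told apart for any difference below. In bulk RNA, more cells of a type and more RNA per cell cannot be told apart either. The deposited FPKM summed to 472450 to 625782 per library. Sequencing came to roughly 30 to 40 M reads a library, per the labels, and the depth is otherwise unknown.

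In the comparison of irradiated with mock brains, Tap1 and H2-Q6 were called higher, no member was called lower, and 7 of the 9 members tested did not pass. The test was limma on log2(FPKM + 0.5) over the 14585 genes whose mean reached 0.5 FPKM, with Benjamini-Hochberg adjustment and a call at an adjusted p under 0.05. On that rule 3.48% of all tested genes were higher and 4.24% lower. The log2 changes of the 9 members ran from -0.26 to 1.41 with a median of 0.50, beside a median of -0.02 over all genes tested. In 6 of the 10 members (H2-K1, H2-Q4, H2-Q6, H2-T23, Tap1 and Nlrc5) all 3 irradiated libraries lay above all 3 mock libraries, and 5 of these 6 were among the genes tested, of which 13.7% were separated in this direction. No member was separated in the other direction, against 17.7% of all tested genes. Nlrc5 was under the filter on low values, and H2-Q6 passed it only through its irradiated libraries, so its call is a description and no support for a change. With no filter neither was called (adjusted p = 0.055 for Tap1 and 0.068 for H2-Q6). With 3 mice a group an exact permutation test cannot go below p = 0.1.

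**Figure D2:**
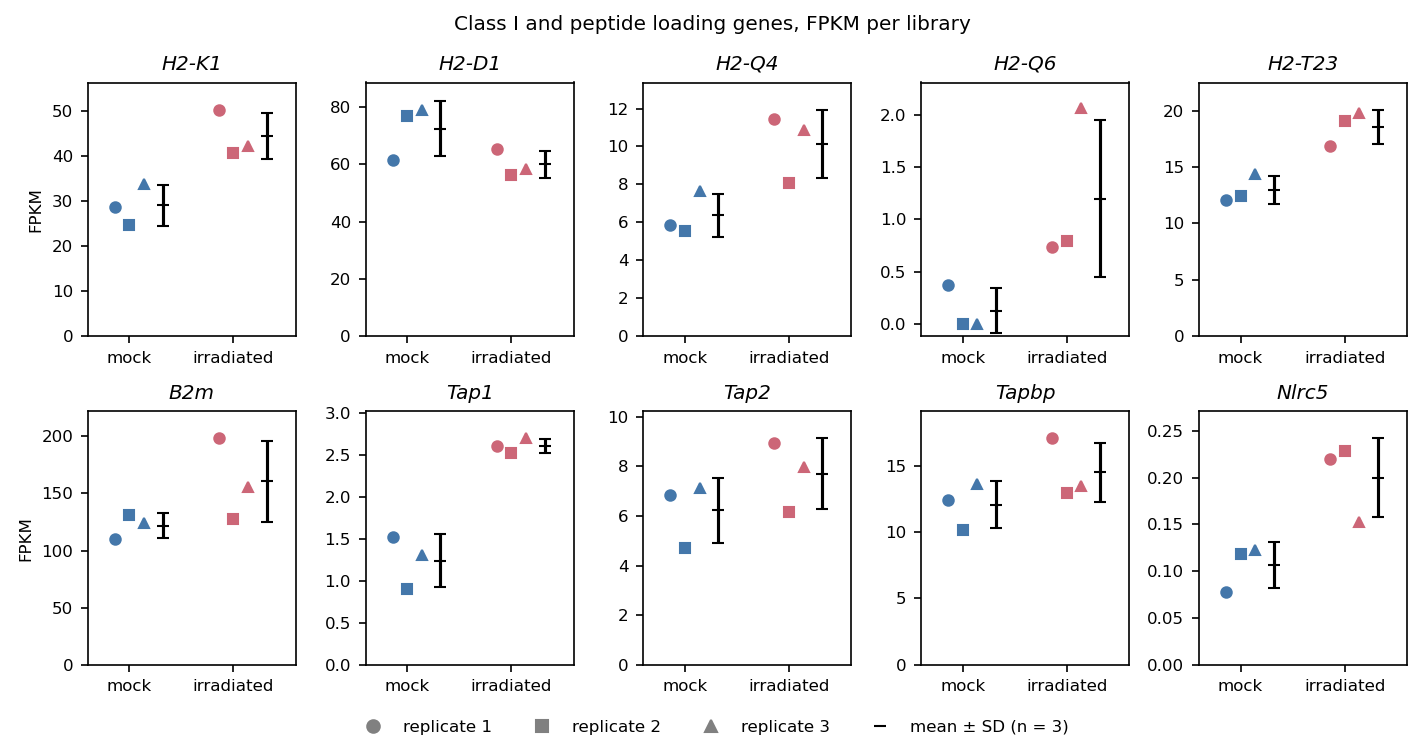
FPKM of the 10 members in each library, with 1 panel per gene, axes on a linear scale that differs between panels, symbols for the replicate number and black bars for the mean ± SD of 3 libraries. The irradiated points lie above the mock points without overlap for H2-K1, H2-Q4, H2-Q6, H2-T23, Tap1 and Nlrc5, and mixed with them for H2-D1, B2m, Tap2 and Tapbp.

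**Figure D3:**
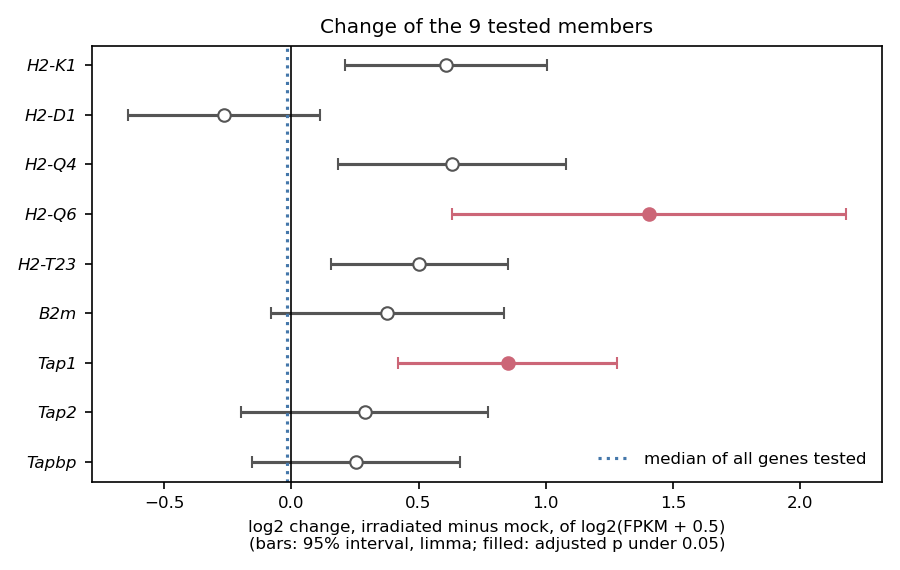
Log2 change of the 9 tested members on the log2(FPKM + 0.5) scale, irradiated minus mock, with 95% intervals from limma; filled points passed an adjusted p under 0.05 and the dotted line is the median of all genes tested. H2-D1 is the only point left of 0, at -0.26.

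The order of the levels was the same in both groups: B2m, H2-D1, H2-K1, H2-T23, Tapbp, H2-Q4, Tap2, Tap1, H2-Q6 and Nlrc5, from a mean of 122 FPKM to one of 0.11 FPKM in mock. Neighbours whose libraries overlapped in both groups were H2-T23 with Tapbp and H2-Q4 with Tap2, so these pairs are not ordered beyond their spread. In mock H2-Q6 and Nlrc5 overlapped too. The transporter subunits were unequal, with 0.18 to 0.22 FPKM of Tap1 per FPKM of Tap2 in mock libraries and 0.29 to 0.41 in irradiated ones. These ratios did not overlap between the groups.

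H2-K1 encodes one of the classical heavy chains that present peptides to CD8 T cells, and it lies on the minus strand of chromosome 17 (33996012 to 34000619). It measured 28.8, 24.8 and 33.9 FPKM without irradiation (mock 1 to 3) against 50.4, 40.8 and 42.4 FPKM with it (irradiated 1 to 3). Every irradiated library was above every mock library, and irradiated 1 was the highest. The means were 29.2 ± 4.58 and 44.5 ± 5.14 FPKM (SD, n = 3 each), a log2 change of 0.61 (SE 0.17, 95% interval 0.21 to 1.00). The limma adjusted p was 0.069, so the change did not pass.

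H2-D1 encodes the other classical heavy chain of this strain (chromosome 17, 35263094 to 35267497). It measured 61.4, 76.9 and 79.05 FPKM without irradiation against 65.3, 56.3 and 58.3 FPKM with it. Here mock 2 and mock 3 were the highest of the 6, and mock 1 lay inside the irradiated range. The log2 change was -0.26 (SE 0.17, 95% interval -0.64 to 0.11, limma adjusted p = 0.35). That interval excludes a rise of the size estimated for H2-K1.

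Set against each other within a library, the classical pair stood in a different proportion after irradiation. H2-K1 was 0.470, 0.322 and 0.429 of H2-D1 in mock libraries and 0.771, 0.726 and 0.726 of it in irradiated ones. The ratio does not depend on how a library was scaled, and all 3 irradiated values were above all 3 mock values. The log2 ratio was higher by 0.88 on average (exact two-sided permutation test p = 0.1, the smallest that 3 against 3 allows). This ratio was picked out after the values were seen. The plain sum of both genes hardly moved, at 101.6 ± 11.4 FPKM without and 104.5 ± 9.87 FPKM with irradiation (SD, n = 3), with overlapping groups.

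H2-D1 made up 59.8 ± 4.03% of the summed FPKM of the 5 member heavy chains in mock and 44.6 ± 0.77% in irradiated libraries (SD, n = 3). H2-K1 made up 24.1 ± 3.05% and 33.1 ± 1.57%, H2-T23 10.7 ± 0.40% and 13.9 ± 1.96%, and H2-Q4 5.24 ± 0.55% and 7.51 ± 0.91%. The shares of H2-D1 did not overlap between the groups, and neither did those of the other 4 heavy chains, in the opposite direction. Such shares are tied to each other, since they add up to the whole.

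**Figure D4:**
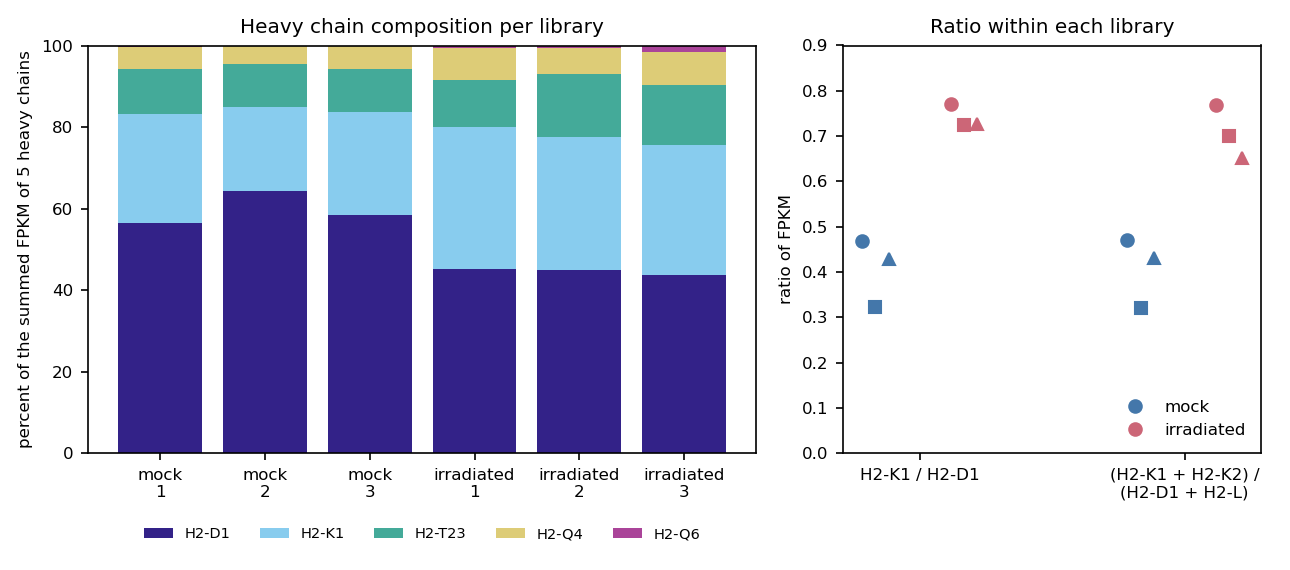
Left, stacked bars of each heavy chain's percent of the summed FPKM of the 5 member heavy chains, per library; right, the ratio of H2-K1 to H2-D1 in each library, alone and with H2-K2 and H2-L added. H2-D1 takes 56.5 to 64.3% of each mock bar and 43.7 to 45.1% of each irradiated bar, and the ratio is higher in all 3 irradiated libraries.

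Class I heavy chains are close copies of each other, and how reads matching several copies were assigned is not stated in the labels. In the longest GENCODE M21 coding transcript, the share of 75-base windows, the read length, found letter for letter in a transcript of another gene was 1.55% for H2-K1, 6.90% for H2-D1, 7.91% for H2-Q4, 13.1% for H2-T23 and 17.9% for H2-Q6. It was 0.99% for Tapbp and 0 for B2m, Tap1, Tap2 and Nlrc5. The symbols H2-Q8 and H2-Q9 were matched to no GENCODE gene. Windows that H2-Q6 may share with them were therefore not counted in its share. The table also lists H2-L and H2-K2, treated here as copies of H2-D1 and H2-K1. H2-D1, and not H2-K2, shared the most windows with H2-K1. The symbol H2-L was matched to no RefSeq gene of GRCm38.p6 and no GENCODE transcript, so its shared windows were not measured. Whether its FPKM came from a gene of its own was not tested. H2-L measured 8.21, 10.8 and 9.97 FPKM without irradiation against 2.06, 4.54 and 8.05 FPKM with it. H2-K2, annotated as a transcribed pseudogene, measured 3.92, 3.32 and 4.49 FPKM without irradiation against 1.40, 1.71 and 0.96 FPKM with it. Both lay lower in all 3 irradiated libraries, and only H2-K2 was called (log2 change -1.26, SE 0.21, limma adjusted p = 0.011; for H2-L -1.07, SE 0.38, adjusted p = 0.12).

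With the copies added, H2-D1 plus H2-L came to 69.6, 87.8 and 89.02 FPKM for mock brains against 67.4, 60.8 and 66.4 FPKM for irradiated ones, now with no overlap. H2-K1 plus H2-K2 came to 33.1 ± 5.16 and 45.9 ± 5.13 FPKM (SD, n = 3). When these sums, chosen after the data were seen, replaced the single genes in the fit, the log2 change was -0.33 for H2-D1 (limma adjusted p = 0.24) and 0.47 for H2-K1 (adjusted p = 0.13). The ratio of the summed pairs was 0.32 to 0.47 in mock and 0.65 to 0.77 in irradiated libraries, a log2 difference of 0.81 (exact two-sided permutation test p = 0.1, the smallest possible).

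H2-Q4 and H2-Q6 belong to the nonclassical Qa region, whose products are less polymorphic, and in this strain the Q6 to Q9 genes encode Qa-2 antigens. H2-Q4 measured 5.86, 5.54 and 7.68 FPKM without irradiation against 11.5, 8.09 and 10.9 FPKM with it. The groups did not overlap, but irradiated 2 lay close to mock 3, and limma gave 0.63 on the log2 scale (SE 0.20) with an adjusted p of 0.087, so H2-Q4 did not pass.

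H2-Q6 (chromosome 17, 35424850 to 35430055) was listed at 0.38, 0.00019 and 0.0029 FPKM without irradiation against 0.74, 0.79 and 2.06 FPKM with it. Its values in mock 2 and mock 3 are close to 0 and irradiated 3 is far above the other 5. The log2 change was 1.41 (SE 0.34, limma adjusted p = 0.043), and its size depends on the pseudocount, from 0.93 with 1 to 2.79 with 0.1. The call was lost without mock 2 (adjusted p = 0.14), mock 3 (0.10) or irradiated 2 (0.055), and without irradiated 3 the gene was under the filter. It was also lost with no filter (0.068), with the replicate block (0.083), without mock 2 and irradiated 1 together (0.057) and with the telencephalon covariate (log2 change 0.71, adjusted p = 0.65). H2-Q8, a neighbouring copy, ran the other way, with 0.00021, 0.78 and 0.54 FPKM for mock brains against 0.00071, 0.00064 and 0.0015 FPKM for irradiated ones. In mock 2 and mock 3 nearly all of the pair's FPKM was thus listed under H2-Q8, and in the other 4 libraries under H2-Q6. Summed over H2-Q6, H2-Q7, H2-Q8 and H2-Q9, the level was 1.20, 1.54 and 1.53 FPKM for mock brains against 2.65, 2.00 and 4.49 FPKM for irradiated ones. The sum had a log2 change of 0.83 (SE 0.26) and did not pass (limma adjusted p = 0.089), so H2-Q6 alone is uncertain as a single gene.

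H2-T23 encodes Qa-1, which presents leader peptides of other class I chains to the CD94/NKG2 receptors of natural killer cells. It measured 12.1, 12.4 and 14.4 FPKM without irradiation against 16.9, 19.1 and 19.8 FPKM with it. The groups were apart, with irradiated 1 the lowest of the irradiated libraries, unlike for H2-K1 and H2-Q4, where it was the highest. With 0.50 on the log2 scale (SE 0.15), H2-T23 had an adjusted p of 0.082 in limma and was not called. The non-coding gene A930015D03Rik covers this locus on the opposite strand and was at 4.96 to 10.1 FPKM. The libraries were stranded, but whether counting used strand is not stated in the labels.

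B2m, the light chain that pairs with class I heavy chains in the endoplasmic reticulum, was the most abundant member. It measured 110.02, 131 and 124 FPKM without irradiation against 198, 128 and 156 FPKM with it. Irradiated 2 lay within the mock range, while irradiated 1 and irradiated 3 lay above it. In limma this was 0.38 on the log2 scale (SE 0.20), with a 95% interval of -0.08 to 0.83 and an adjusted p of 0.28, not a call. The summed heavy chains amounted to 0.995 ± 0.088 of B2m in mock and to 0.856 ± 0.12 of it in irradiated libraries (SD, n = 3), with overlap. H2-D1 alone went from 0.593 ± 0.040 to 0.382 ± 0.056 of B2m without overlap, while H2-K1, H2-Q4 and H2-T23 relative to B2m overlapped between the groups.

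Tap1 (chromosome 17, 34187556 to 34197225) encodes the transporter subunit that pairs with Tap2, and it was the member with the smallest p. It measured 1.52, 0.90 and 1.31 FPKM without irradiation against 2.60, 2.53 and 2.70 FPKM with it. The irradiated libraries lay close together and well above the highest mock library. The mean went from 1.24 ± 0.31 to 2.61 ± 0.084 FPKM (SD, n = 3), 2.10 times the mock mean, or 0.85 higher on the log2 scale (SE 0.19, limma adjusted p = 0.032). No read-length window of its transcript occurs in another gene, but in GENCODE M21 the Tap1 and Psmb9 gene models share 212 bases on opposite strands, and Psmb9 was higher in the same libraries. The call was lost when mock 1, mock 2, mock 3, irradiated 2 or irradiated 3 was left out, with log2 changes of 0.70 to 0.97 and adjusted p of 0.063 to 0.12. A covariate made of the telencephalon markers also ended it (0.48, adjusted p = 0.57), as did leaving out mock 2 and irradiated 1 together (0.71, adjusted p = 0.066).

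Tap2 (chromosome 17, 34204479 to 34216321), its partner, did not separate the groups. It measured 6.85, 4.73 and 7.12 FPKM without irradiation against 8.95, 6.14 and 7.98 FPKM with it. Irradiated 2 lay among the mock values, and the log2 change was 0.29 (SE 0.21, 95% interval -0.20 to 0.77, limma adjusted p = 0.42). Tapbp measured 12.4, 10.2 and 13.6 FPKM without irradiation against 17.05, 12.95 and 13.45 FPKM with it. Only irradiated 1 exceeded the mock range, and the log2 change was 0.25 (SE 0.18, 95% interval -0.16 to 0.66, adjusted p = 0.40). The Tapbp gene model overlaps that of Zbtb22 on the same strand, which was at 16.4 to 23.1 FPKM.

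Nlrc5, a nucleotide-binding protein that enters the nucleus and switches on class I genes, was near the bottom of the table. It measured 0.078, 0.12 and 0.12 FPKM without irradiation against 0.22, 0.23 and 0.15 FPKM with it. All 3 irradiated libraries were above the mock range at these low levels. In the fit without a filter the log2 change was 0.21 (SE 0.074, limma adjusted p = 0.16), and the scale used compresses a change this close to 0.

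Members did not order the libraries alike. Irradiated 1 had the highest value of the 6 libraries for 5 members, irradiated 3 for 3 and irradiated 2 for 1, while mock 3 was the highest for H2-D1. Mock 2 was the lowest for 6 members and mock 1 for 3. Irradiated 2 was the lowest irradiated library for 7 of the 10 members.

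The genes around the members changed in part. The inducible proteasome subunits replace constitutive ones and favour peptides that fit class I. With their activator they were the group with the most calls. Of these 5 genes, 3 rose and 0 fell, against 3.48% and 4.24% of all genes tested, and their median log2 change was 0.83. Psmb9 measured 1.65, 1.33 and 1.97 FPKM without irradiation against 4.51, 3.05 and 3.07 FPKM with it (log2 change 0.90, SE 0.21, limma adjusted p = 0.038). Its irradiated libraries all lay above the mock range, as did those of Tap1, its head-to-head neighbour. Psmb8 had a log2 change of 0.83 (adjusted p = 0.048) and Psme1, a subunit of the PA28 activator, one of 0.95 (adjusted p = 0.049). The 3 calls, at limma adjusted p of 0.038 to 0.049, were not followed through the alternative settings given below. Psmb10 and Psme2 did not pass (0.82, adjusted p = 0.11, and 0.70, adjusted p = 0.19). Of the 3 constitutive counterparts, Psmb5, Psmb6 and Psmb7, limma called 0, and 1 lay higher with an unadjusted p under 0.05 (Psmb5, 0.61, adjusted p = 0.12). An unadjusted p under 0.05 was reached by 11.7% of all genes tested in the higher and by 13.9% in the lower direction, so counts of 1 or so at that threshold in the small groups described here are near the background.

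Of 21 other class I heavy chains, 10 were tested, 0 rose and 1 fell, H2-K2, with a median log2 change of -0.18. H2-Q7 had a log2 change of 0.68 (adjusted p = 0.10) and H2-M3, which presents formylated peptides, one of 0.36 (adjusted p = 0.23). H2-M9 and H2-M11 were listed at 0 in all libraries. Among 4 tested class I-like genes, limma called 0, and 1 lay lower with an unadjusted p under 0.05, Cd1d1, which presents lipids (-0.55, adjusted p = 0.17). Mr1, which presents vitamin B metabolites, was at -0.32 (adjusted p = 0.25), Hfe at -0.22 (adjusted p = 0.44) and Fcgrt, the neonatal Fc receptor, at 0.02 (adjusted p = 0.95).

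Of 8 other loading factors tested, limma called 0, and 1 lay lower with an unadjusted p under 0.05, against 13.9% of all genes tested, and the median log2 change was -0.02. That 1 was Erap1, the aminopeptidase that trims peptides for class I, at 2.64 ± 0.35 FPKM without and 1.80 ± 0.15 FPKM with irradiation (SD, n = 3; -0.44, adjusted p = 0.15), with no overlap. Tapbpl, a tapasin-related peptide editor, lay higher without overlap (0.42, adjusted p = 0.20), and Calr, the chaperone calreticulin, had a log2 change of 0.45 (adjusted p = 0.20).

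Among 17 tested transcription factors known to act on class I genes, 1 rose and 0 fell, with a median log2 change of -0.02. The 1 was Irf7, with 2.33, 2.58 and 1.85 FPKM without irradiation and 5.61, 6.45 and 6.18 FPKM with it (log2 change 1.27, SE 0.17, limma adjusted p = 0.0041). Stat2, a partner of Irf9 in type I interferon signalling, had a log2 change of -0.55 (adjusted p = 0.082) and Rfx5, a subunit of the complex at the X box, one of -0.51 (adjusted p = 0.19). Irf1, a factor of class I promoters, had one of 0.14 (adjusted p = 0.62). Ciita, the class II counterpart of Nlrc5, was under the filter at 0.059 to 0.17 FPKM.

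Of 8 tested genes of interferon signalling, limma called 0, and 1 lay higher with an unadjusted p under 0.05, Socs1, an inhibitor that interferons induce (log2 change 0.49, adjusted p = 0.13). Ifngr2 had a log2 change of 0.31 (adjusted p = 0.29) and Jak2 one of -0.21 (adjusted p = 0.41). Ifng and Ifnb1 were listed at 0 in all 6 libraries. The median over the 8 was -0.03. None of the 9 class I receptors in the table reached the filter. Cd8a stayed at or under 0.048 FPKM and Klrc2 was listed at 0 throughout. Pirb, a class I receptor of myeloid cells and neurons, measured 0.12, 0.17 and 0.21 FPKM without irradiation against 0.28, 0.19 and 0.082 FPKM with it.

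**Figure D5:**
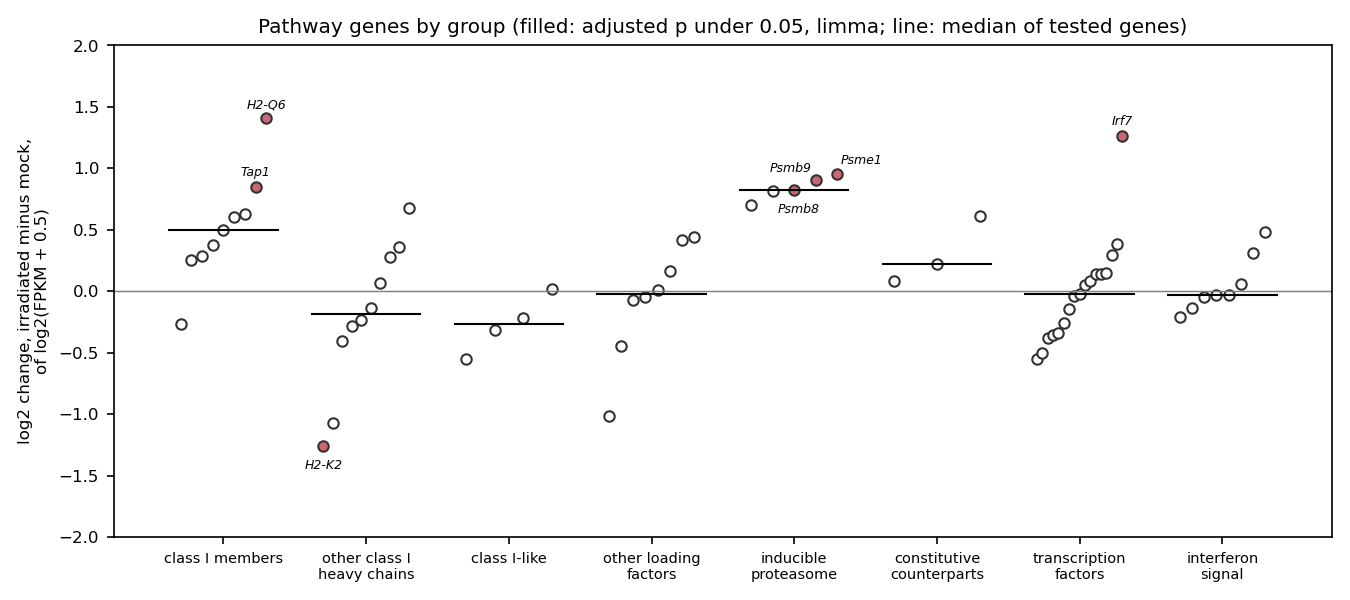
Log2 change, irradiated minus mock, of each tested gene in the class I members and 7 groups around them, on the log2(FPKM + 0.5) scale; filled points passed an adjusted p under 0.05 in limma and the black line is the group's median. The inducible proteasome group holds 3 filled points, and no other group beside the members holds more than 1.

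Markers of some cells that carry class I RNA also differed between the groups. Over 19 microglia markers, none at 0 in all libraries, the summed level was 329, 329 and 393 FPKM for mock brains against 625, 395 and 514 FPKM for irradiated brains. Of these 19, 3 rose and 0 fell. Irradiated 1 was the highest and irradiated 2 the lowest irradiated library of that sum, as they were for B2m and H2-K1. The FPKM total of all genes had the same order, at 625782, 510046 and 621850 for irradiated 1 to 3. Calr had it too, at 285, 212 and 275 FPKM, so this order is not particular to microglia markers. Over 10 endothelium markers the sum was 118.6 to 152.6 FPKM for mock brains against 98.03 to 118.03 FPKM for irradiated ones; limma called 0, and 3 of 10 lay lower with an unadjusted p under 0.05, against 13.9% of all genes tested. Over 5 border macrophage markers it was 2.88 to 3.93 FPKM and 5.01 to 8.53 FPKM. Of the 4 tested, limma called 0 and 2 lay higher with an unadjusted p under 0.05, against 11.7% of all genes tested. The fifth marker, Cd163, was under the filter and lower in all 3 irradiated libraries (0.51 ± 0.047 against 0.38 ± 0.069 FPKM, SD, n = 3). Over 12 T and natural killer cell markers it was 1.40 to 2.38 FPKM and 4.64 to 6.10 FPKM, and both tested markers, Lck and Zap70, rose. Those 2 carried the sum: the other 10 added up to 0.46, 0.34 and 0.57 FPKM for mock brains and 1.01, 0.46 and 0.41 FPKM for irradiated ones, which overlap. The T cell receptor chain Cd3e stayed at or under 0.12 FPKM and Cd3d at or under 0.25 FPKM. Over 4 B cell markers the groups overlapped, at 0.19 to 0.90 FPKM and 0.44 to 0.82 FPKM. Over 8 neuron markers they overlapped too, at 2152 to 2754 FPKM for mock brains and 2508 to 3175 FPKM for irradiated ones. Of these 8, 1 was called higher, Slc17a7 (limma adjusted p = 0.038), and 0 lower, against 3.48% and 4.24% of all genes tested. Over 5 monocyte and neutrophil markers the sum was 7.29 to 9.97 FPKM for mock brains against 33.6, 3.17 and 1.70 FPKM for irradiated ones. Over 6 oligodendrocyte markers the sum was 5078 to 6169 FPKM for mock brains and 2397 to 4216 FPKM for irradiated ones. Over 4 hippocampus markers it was 7.84 to 11.1 FPKM and 58.7 to 86.0 FPKM. Over 6 astrocyte and over 6 choroid plexus markers the groups overlapped. Limma called 1 oligodendrocyte and 1 astrocyte marker lower and 3 hippocampus markers higher, against 4.24% and 3.48% of all genes tested. The part of these cells and of the brain regions in the class I values was not tested.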

How the data were processed

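RNA was sequenced from 6 mouse brains as stranded libraries depleted of ribosomal RNA, with single-end reads of 75 nucleotides, per the labels. The authors deposited their values as FPKM in 1 table. The submitters' processing notes name TopHat, Cufflinks, Cuffdiff and mm10; versions, settings, annotation and use of strand were not given in the sources used here. After removal of 1 leftover header line, genes averaging 0.5 FPKM or more were tested with limma 3.58.1 (R 4.3.3) on log2(FPKM + 0.5). The model held only the group, with a trended prior variance, and two-sided p-values were adjusted by Benjamini-Hochberg over all 14585 genes. Nothing in the labels ties same-numbered mice to a litter or day. The p-values set the group difference against the spread between these samples, moderated by the trended prior variance. Members, lists and tests were chosen with earlier results of these data known. All members were named, and of each pathway list the called genes, the 3 with the smallest p and those at 0; other genes were chosen after their values were seen. Alternatives were other pseudocounts, filters and scalings, robust variance, the replicate block, a region covariate, left-out libraries and summed copies. Sequences are RefSeq's (GRCm38.p6), and shared windows were counted in GENCODE M21 transcripts.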

Additional observations from a re-analysis of the deposited data

How the results depend on the processing

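No member was called lower under any of the 17 alternatives run, and of the log2 changes of the 9 tested members only that of Tap2 changed sign, to -0.11 with the telencephalon covariate. The number of members called higher, 2, was 0 with no filter on low values and with the replicate number as a block. It was also 0 with the telencephalon covariate and without mock 2 and irradiated 1 together. It was 1 with a mean of at least 1 FPKM and with the copies named above summed. Leaving out single libraries gave 0 to 2. Without mock 2 and irradiated 1, Tap1 had a log2 change of 0.71 (adjusted p = 0.066) and H2-Q6 one of 1.46 (adjusted p = 0.057). With the telencephalon covariate, on which the groups do not overlap, they had 0.48 and 0.71, and 16 genes were higher and 55 lower over the whole table, beside 508 and 618. Leaving out single libraries gave 147 to 673 higher and 254 to 695 lower. The replicate block gave 401 higher and 394 lower. Deviations of same-numbered mice correlated at -0.33, 0.19 and 0.20, not every mouse correlated best with its own number, and they were treated as sharing only a number. With the block the adjusted p was 0.064 for Tap1 and 0.083 for H2-Q6. Median centring gave 687 higher and 571 lower and quantile normalization 643 and 626, so 54.6% and 50.7% of calls were higher, beside 45.1%. Members that did not pass in the report passed under none of the 17 alternatives; H2-K1 had log2 changes of 0.41 to 0.72 and H2-D1 of -0.42 to -0.10 over them. The cause of these shifts was not tested. Without counts, the precision of low members such as Nlrc5 and H2-Q6 is unknown.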
